A study of Homo sapiens with 36 samples.

Results

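Expression of 10 genes used as markers of neural crest cells or of stem-like melanoma cells was examined in BRAF-mutant melanoma lines under BRAF and MEK inhibition, with and without induced NR2F1. The genes are NGFR, AQP1, SOX9, SOX2, TFAP2A, TFAP2B, TFAP2C, FOXD3, L1CAM and NES. They were taken by name, and all 10 were found among the 60656 gene IDs of the deposited files. The libraries were bulk RNA-Seq of 3 human melanoma lines, 1205LuTR-NR2F1, WM793TR-NR2F1 and also A375TR-NR2F1, called 1205Lu, WM793 and A375 here. Each line expresses the Tet repressor and contains a cDNA of NR2F1 under control of doxycycline (DOX), which induces it. NR2F1 is an orphan nuclear receptor, that is, a transcription factor of the nuclear receptor family with no established ligand.

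Each line had 4 groups of 3 replicate libraries, which makes 12 groups and 36 libraries. The groups were DMSO (the vehicle), DMSO + DOX, the inhibitor pair BRAFi + MEKi, and this pair with DOX, written BRAFi + MEKi + DOX. Treatment lasted 72 h. BRAFi was PLX4720 at 1 µM and MEKi was PD0325901 at 35 nM. DOX was used at 100 ng/mL, also during the 24 h before treatment, a period for which the study's methods set no group apart. No library had DOX without the NR2F1 cDNA, so effects of DOX itself and of NR2F1 cannot be told apart. A375 was grown in another medium than the other lines, so line and medium cannot be told apart in comparisons of A375 with them. In bulk RNA, fewer cells with a transcript and less of it per cell give the same value. The study describes its in vitro replicates as independent experiments.

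Neural crest cells arise at the border of the neural plate, migrate through the embryo and give rise to melanocytes, peripheral glia, sensory neurons and other cells. AP-2 factors (the TFAP2 genes), FOXD3 and SOX9 belong to the transcription factor network that specifies the neural crest, and SOX2 is a stem cell factor that is also found in Schwann cell precursors. NGFR, AQP1, L1CAM and NES encode surface or cytoskeletal proteins of neural crest or neural progenitor cells, and melanoma cells with high NGFR and AQP1 are commonly called neural crest stem-like.

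The deposited values are normalized expression per gene. They sum to between 27027824 and 34621958 per library, and the number of reads behind a library, estimated from its commonest low value, was between 6570000 and 60500000 with a median of 29900000. The lowest estimate was that of WM793 DMSO replicate 1, where the commonest low value was 5.1, so values of a few units there are close to a single read. NR2F1 was higher in every library with DOX than in every library without it within each line. The margin was narrowest in 1205Lu under DMSO, at 2182 to 6273 without DOX and 9155 to 20699 with it, where the change was not called (1.93, FDR-adjusted p = 0.41, limma's moderated test). Of the melanocyte markers, SOX10 was at 5684 or above in all 36 libraries, while MLANA and TYR were listed at 0 in 35 of 36 and PMEL reached at most 153. Of 10 markers of other cell types, CD3E was listed at 0 in 34 of 36 libraries, KRT5 in 27 and PTPRC in 24. Others were detected in most libraries. KRT14 was listed at 0 in 9 libraries, VWF in 2 and KRT15 in 1, and they reached 244, 75.5 and 627. The summed level of those 10 markers was between 4.49 and 954 per library, against 40021 to 131400 for 12 melanocyte lineage genes.

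Promoters of the members on which the results turn are shown first. AGGTCA is the half-site that nuclear receptors bind, ACAAAG is the core of the SOX factor motif, and GCCNNNGGC is the AP-2 motif. All were searched on both strands. Among 35116 RefSeq windows of 250 bases before a start, AGGTCA occurred in 12.1%, GCCNNNGGC in 19.8% and ACAAAG in 13.7%. Windows were matched for 7 of the 10 members, and NGFR, SOX9 and TFAP2C had no match. The sequences are from RefSeq on GRCh38.p14, written 5′ to 3′ on the gene's strand, with motif matches in capitals. NES is shown because it was the member called for DOX under the inhibitors, and TFAP2A and FOXD3 because they rose with the inhibitors in every line. The NES window is chr1:156677408-156677657 on the minus strand and holds 1 AGGTCA, here read on the other strand. The TFAP2A window is chr6:10419660-10419909 on the minus strand and holds 1 AGGTCA close to the start. The FOXD3 window is chr1:63322317-63322566 on the plus strand and holds 1 ACAAAG, read on the other strand.
NES: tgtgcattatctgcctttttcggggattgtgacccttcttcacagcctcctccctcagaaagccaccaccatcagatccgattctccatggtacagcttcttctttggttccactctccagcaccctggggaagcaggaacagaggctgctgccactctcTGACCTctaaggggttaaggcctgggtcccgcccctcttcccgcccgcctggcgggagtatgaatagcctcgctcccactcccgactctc
TFAP2A: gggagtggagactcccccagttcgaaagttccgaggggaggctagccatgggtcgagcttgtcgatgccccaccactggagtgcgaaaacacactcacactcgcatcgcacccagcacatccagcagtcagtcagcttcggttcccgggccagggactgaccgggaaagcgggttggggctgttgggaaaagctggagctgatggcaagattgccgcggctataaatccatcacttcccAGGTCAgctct
FOXD3: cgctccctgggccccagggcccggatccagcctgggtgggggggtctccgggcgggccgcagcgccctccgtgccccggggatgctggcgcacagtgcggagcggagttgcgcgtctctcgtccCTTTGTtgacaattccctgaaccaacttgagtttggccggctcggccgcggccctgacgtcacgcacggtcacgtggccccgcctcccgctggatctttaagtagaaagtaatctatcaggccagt
A second TFAP2A window, chr6:10412392-10412641, held none of these motifs, and neither did the TFAP2B window or both L1CAM windows. The TFAP2B and L1CAM windows overlap an untranslated region of another start of their gene, so they do not lie before every start. The SOX2 window, chr3:181711675-181711924, held each motif 1 time, and the AQP1 window, chr7:30911603-30911852, held 1 ACAAAG. A match describes the letters of the window and shows no binding.

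The first question was how abundant the markers were before treatment. To compare genes, levels were set per kilobase of each gene's canonical transcript. NES had the highest level in 1205Lu under DMSO, at 4207 ± 118 per kb (SD, n = 3). L1CAM at 2146 ± 207, SOX9 at 2143 ± 382 and TFAP2C at 1608 ± 319.9 came next and overlapped with their neighbours in this order. AQP1 at 4.06 ± 2.9 and TFAP2B at 1.48 ± 0.33 were lowest. WM793 also had NES first, at 4247 ± 723 per kb, then TFAP2C at 3014 ± 219.6 and L1CAM at 1212 ± 139.9, none of which overlapped with the next. A375 had L1CAM first, at 1959 ± 330.1 per kb, and then NES at 888 ± 74.3 and TFAP2C at 794 ± 44.9, whose libraries overlapped. TFAP2B was last in all 3 lines.

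SOX9 had the largest difference of 1205Lu from each of the other lines. SOX9 (ENSG00000125398.8, chr17:72121020-72126416, plus strand of GRCh38) encodes an HMG-box factor of neural crest, cartilage and glial precursors. Its normalized expression under DMSO was 8255, 10001 and 7013 in 1205Lu. The corresponding values were 0, 35.8 and 52.0 for WM793 and 37.4, 59.4 and 326 for A375. All 1205Lu libraries were far above all libraries of the other lines. The mean of 1205Lu was 288-fold that of WM793. The fitted log2 difference is one of mean logs, includes the WM793 library at 0 and is not the log of that fold. It was 9.38 (SE 1.31, FDR-adjusted p = 1.2e-06, limma's moderated test on log2(value + 1)). A gene is said to be called where this p, adjusted over all genes tested, is under 0.05. Compared with A375 the log2 difference was 6.52 (SE 1.31, FDR-adjusted p = 0.00012). WM793 and A375 overlapped (-2.87, FDR-adjusted p = 0.074).

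NES, which encodes the intermediate filament protein nestin of neural progenitors, set A375 apart. Its level was 23427 ± 657 in 1205Lu and 23649 ± 4025 in WM793 (SD, n = 3), with a log2 difference of 0.00 (95% interval -0.44 to 0.44). A375 had 4942 ± 414, lower by 2.25 than 1205Lu (FDR-adjusted p = 4.4e-10, limma's moderated test) and by 2.25 than WM793 (5.0e-10). FOXD3 was lowest in WM793, at 48.4 ± 15.7, with 425 ± 152 in 1205Lu and 258 ± 42.1 in A375, and TFAP2C was highest in WM793, at 8627 ± 628. For each pair of lines 6 of the 10 members were called different under DMSO. Over all 26779 genes tested, 30.7% were called for 1205Lu versus WM793, 46.8% for 1205Lu versus A375 and 47.5% for WM793 versus A375. NGFR was not called for any pair, although its A375 libraries, at 682, 727 and 1605, were all above those of the other lines.

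**Figure D1:**
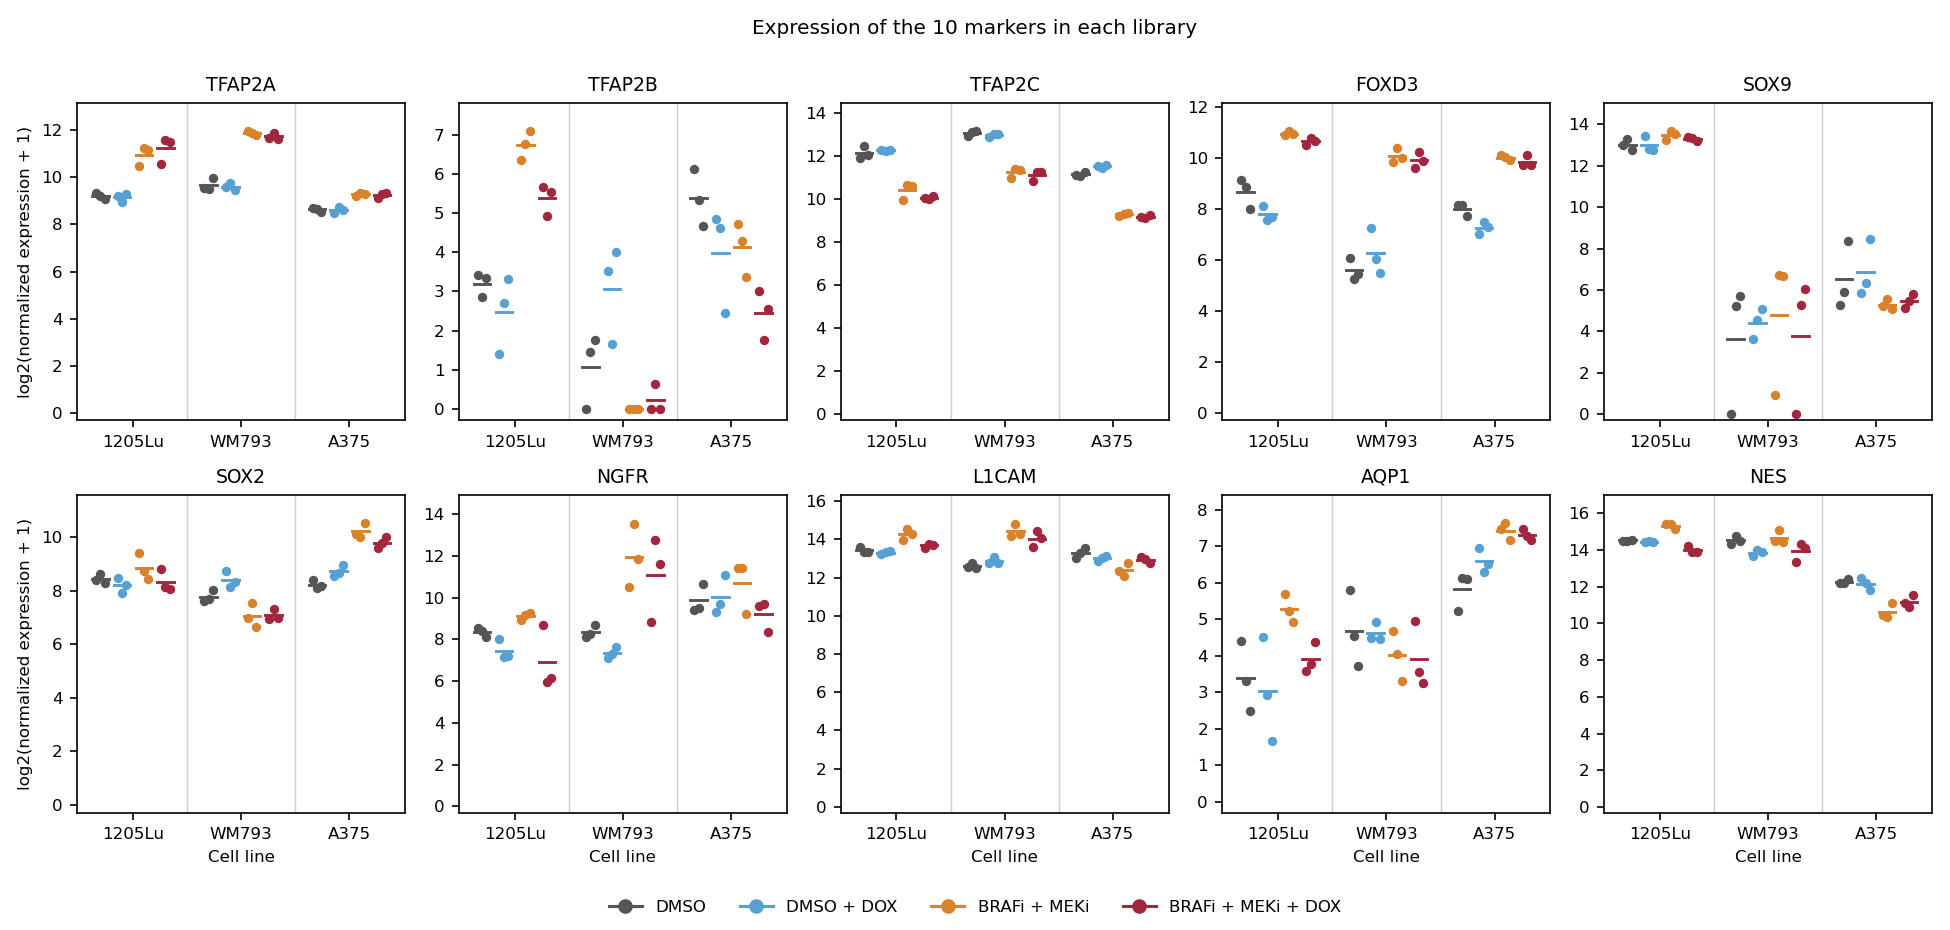
Each panel plots 1 marker, with log2(normalized expression + 1) on the y axis and the cell lines on the x axis; points are the 3 libraries of a group and bars their means. FOXD3 and TFAP2A sit higher and TFAP2C sits lower with BRAFi + MEKi in all 3 lines, and SOX9 is far higher in 1205Lu than in the other lines.

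The next comparison asked how the markers responded to BRAFi + MEKi without DOX. FOXD3 and TFAP2A rose and TFAP2C fell in all 3 lines, and SOX9 was called in none. Of the 10 members, 5 rose and 1 fell in 1205Lu, where 16.5% of all genes tested rose and 14.4% fell (30.9% together). WM793 had 4 members up and 2 down, with 20.4% and 16.9% of all genes (37.3% together). A375 had 4 up and 3 down, with 20.5% and 19% of all genes (39.5% together). A call in the same direction in all 3 lines was made for 3 of the 10 members and for 11.8% of the 19420 genes tested in every line. The median log2 change of the members was 0.82, 0.63 and -0.12 for 1205Lu, WM793 and A375, with 0.11, 0.15 and 0.06 over all genes. Rescaling to equal library totals raised the latter by 0.06, 0.18 and 0.14, and with DOX present by 0.10, 0.16 and 0.12, and moved the median difference under DMSO by -0.10 for 1205Lu versus A375 and by -0.13 for WM793 versus A375.

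AP-2 factors bind a shared DNA motif as dimers. TFAP2A (ENSG00000137203.14, chr6:10393186-10419659, minus strand) is needed for neural crest and melanocyte development. Its libraries in 1205Lu were at 645, 586 and 540.4 with DMSO and at 1419, 2438 and 2272 with BRAFi + MEKi. WM793 went from 734, 724 and 989 to 3934, 3722 and 3525, and A375 from 416, 401 and 370.3 to 586, 639 and 625. Every treated library was above every DMSO library of its line, and A375 had the narrowest gap. The log2 change was 1.75 for 1205Lu (SE 0.25, FDR-adjusted p = 0.00019, limma's moderated test), 2.20 for WM793 (SE 0.13, FDR-adjusted p = 8.4e-08) and 0.64 for A375 (SE 0.12, FDR-adjusted p = 0.001). By limma's interaction contrast the rise of A375 was smaller than that of 1205Lu by 1.11 (FDR-adjusted p = 0.0045) and than that of WM793 by 1.56 (FDR-adjusted p = 6.2e-05). Such differences in response were called for 5, 5 and 6 members over the pairs 1205Lu versus WM793, 1205Lu versus A375 and WM793 versus A375, where 14.5%, 14.7% and 22.8% of all genes were. The kit does not mark strand, and the antisense genes TFAP2A-AS1 and TFAP2A-AS2 share exon bases with TFAP2A, with at most 47.0 and 79.0 in any library.

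TFAP2C (ENSG00000087510.7, chr20:56629306-56639283, plus strand), an AP-2 factor known from trophoblast, germ cells and breast cancer, went the opposite way. The 1205Lu libraries went from 3868, 5627 and 4307 with DMSO to 997, 1633 and 1584 with BRAFi + MEKi. Those of WM793 went from 7924, 8824 and 9134 to 2028, 2727 and 2663, and those of A375 from 2219.7, 2179 and 2419 to 602, 639 and 646. No treated library reached a DMSO library of its line. TFAP2C fell by 1.73 on the log2 scale in 1205Lu (SE 0.19, FDR-adjusted p = 1.8e-05), by 1.81 in WM793 (SE 0.14, FDR-adjusted p = 4.9e-07) and by 1.85 in A375 (SE 0.10, FDR-adjusted p = 1.9e-08, limma's moderated test). Differences between lines in this response missed the threshold, at 0.08, FDR-adjusted p = 0.9 for 1205Lu versus WM793 (95% interval -0.34 to 0.51), 0.12, FDR-adjusted p = 0.77 for 1205Lu versus A375 (-0.30 to 0.55) and 0.04, FDR-adjusted p = 0.94 for WM793 versus A375 (-0.39 to 0.47).

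TFAP2B (ENSG00000008196.13, chr6:50818723-50847619, plus strand), a further AP-2 factor, was scarce. In 1205Lu its level went from 9.68, 6.2 and 9.17 with DMSO to 82.3, 109 and 138 with BRAFi + MEKi, a log2 change of 3.55 (SE 0.52, FDR-adjusted p = 0.0002, limma's moderated test). WM793 had 0, 1.73 and 2.37 with DMSO and was listed at 0 in all 3 libraries with the inhibitors. A375 had 69.4, 39.5 and 24.5 with DMSO and 25.7, 18.5 and 9.29 with the inhibitors, which overlapped (-1.25, FDR-adjusted p = 0.15). The response of 1205Lu was above that of WM793 by 4.62 (FDR-adjusted p = 0.00048) and above that of A375 by 4.81 (FDR-adjusted p = 0.00038), and the WM793 values are those of a few reads at most.

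Per kilobase of canonical transcript, TFAP2A held a larger share of the AP-2 level with BRAFi + MEKi in every line. It made up 10.7% ± 2.29 (SD, n = 3) of the summed TFAP2A, TFAP2B and TFAP2C level in 1205Lu with DMSO and 55.9% ± 0.75 with BRAFi + MEKi. The share in WM793 was 7.91% ± 1.02 with DMSO and 58.0% ± 5.1 with the inhibitors, and in A375 13.6% ± 1.23 and 46.8% ± 0.42. The lowest treated library was above the highest DMSO library of each line. The summed level was 1797 ± 315 per kb with DMSO and 1160.2 ± 301 with the inhibitors in 1205Lu, 3274 ± 254 and 2049.9 ± 88.4 in WM793, and 928 ± 36.3 and 419 ± 15.5 in A375. These shares follow from the changes of TFAP2A and TFAP2C and were not tested. They depend on the length taken for TFAP2A, 3143 bases for the canonical transcript and 8220 for all annotated exons together. By the latter the share was 4.59% with DMSO and 33.8% with BRAFi + MEKi in 1205Lu, 3.33% and 35.8% in WM793, and 5.94% and 26.1% in A375, so it was higher with the inhibitors on both lengths, but TFAP2A exceeded TFAP2C only on the canonical one in the 1205Lu and WM793 means.

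**Figure D2:**
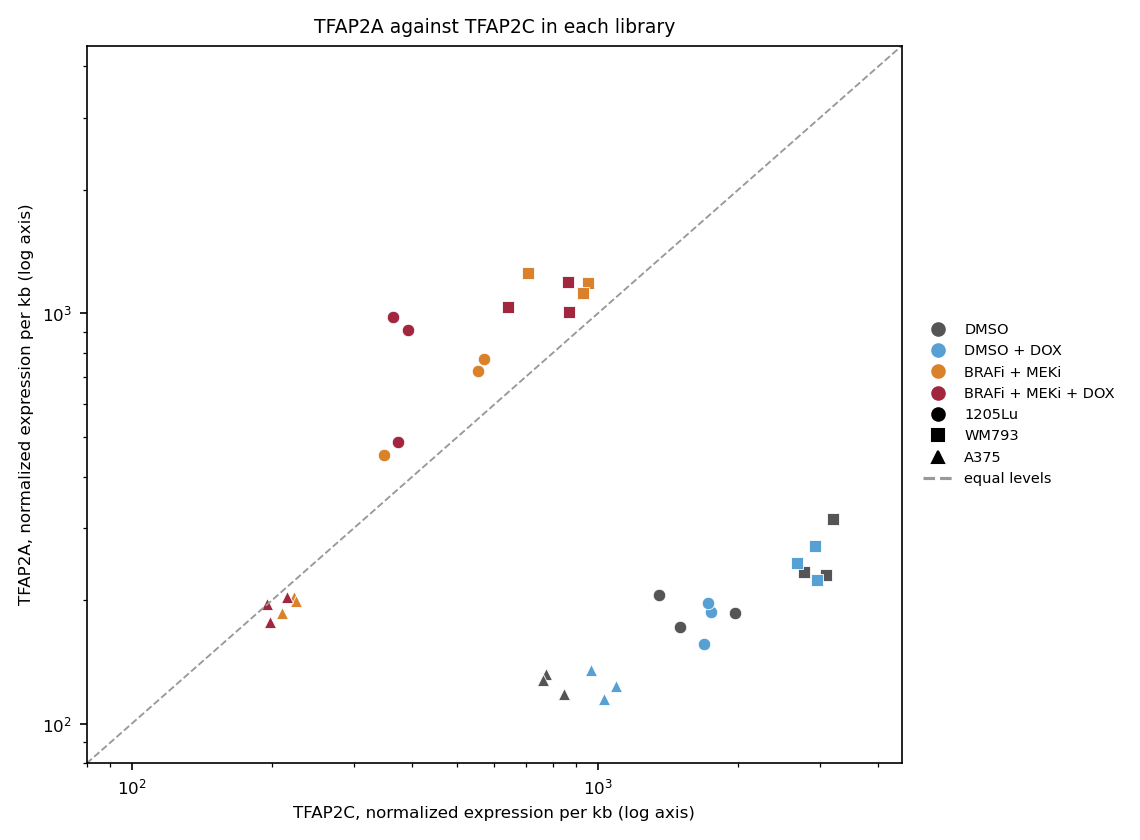
TFAP2A is plotted against TFAP2C, both as normalized expression per kb of canonical transcript on log axes, with 1 point per library and a dashed line of equal levels. Libraries without inhibitors lie far below the line, 1205Lu and WM793 libraries with inhibitors lie above it, and A375 libraries with inhibitors lie close to it. By the length of all annotated exons the treated libraries would lie below it, apart from 1205Lu BRAFi + MEKi + DOX replicate 2.

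FOXD3 (ENSG00000187140.6, chr1:63322567-63325128, plus strand) is a forkhead factor that keeps neural crest cells undifferentiated and represses the melanocyte programme. The 1205Lu libraries were at 553, 465 and 257 with DMSO and 1883, 2107 and 1934 with BRAFi + MEKi. WM793 had 66.3, 36.9 and 41.9 and then 912, 1339 and 1007, and A375 had 282, 282 and 209 and then 1091, 1033 and 965. All treated libraries were above all DMSO libraries, although WM793 started from the lowest level. The log2 change was 2.28 for 1205Lu (SE 0.24, FDR-adjusted p = 1.5e-05, limma's moderated test), 4.49 for WM793 (SE 0.37, FDR-adjusted p = 9.3e-07) and 2.01 for A375 (SE 0.17, FDR-adjusted p = 1.1e-06). WM793 rose more than 1205Lu by 2.20 (log2 difference -2.20, FDR-adjusted p = 0.00047) and more than A375 by 2.48 (FDR-adjusted p = 5.9e-05). FOXD3-AS1, on the other strand, shares 618 exon bases with FOXD3 and was at 25.9 to 392 over the libraries, so reads of these bases cannot be assigned to a strand.

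SOX2 (ENSG00000181449.4, chr3:181711925-181714436, plus strand), a pluripotency and neural stem cell factor, rose in A375 and was called lower in WM793. A375 had 336, 275 and 285 with DMSO and 1121, 1037 and 1459.8 with BRAFi + MEKi, a log2 change of 2.00 (SE 0.17, FDR-adjusted p = 8.1e-07, limma's moderated test). WM793 had 194, 205 and 259 and then 124, 184 and 99.8. The WM793 groups came close without overlapping, at -0.72 (SE 0.26, FDR-adjusted p = 0.041). This call was lost without DMSO replicate 2 (FDR-adjusted p = 0.068), DMSO replicate 3 (0.13), BRAFi + MEKi replicate 1 (0.094) or BRAFi + MEKi replicate 3 (0.17), and with rescaled totals (-0.51, FDR-adjusted p = 0.13). A fit of only the libraries compared also lost it, at the same log2 change (-0.72, FDR-adjusted p = 0.086). The 1205Lu groups overlapped (0.41, FDR-adjusted p = 0.27). The response of A375 was above that of WM793 (log2 difference of WM793 from A375 -2.72, FDR-adjusted p = 5.9e-07) and above that of 1205Lu (difference of 1205Lu from A375 -1.58, FDR-adjusted p = 0.0017).

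SOX9 was not called with BRAFi + MEKi in any line, although array weights called it higher in 1205Lu without DOX (0.59, FDR-adjusted p = 0.011) and with DOX (0.40, FDR-adjusted p = 0.03). The treated 1205Lu libraries, at 9802, 12994 and 11842, overlapped with the DMSO libraries (0.46, FDR-adjusted p = 0.088, 95% interval 0.05 to 0.88, limma's moderated test). Treated libraries were at 0.87, 104 and 101 in WM793 and 36.4, 47.1 and 32.4 in A375. WM793 replicate 1 was the lowest of its group in all 4 treatments, at 11.2 or less. A375 replicate 3 was at 326 with DMSO and 347 with DMSO + DOX, while all other A375 libraries were at 79.9 or less. The 95% interval of the WM793 change ran from -2.85 to 5.10, so a large change in either direction was not detectable there.

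Among the surface and cytoskeletal markers, NGFR (ENSG00000064300.9, chr17:49495293-49515008, plus strand) encodes the low-affinity neurotrophin receptor. WM793 had 274, 306 and 412 with DMSO and 1439, 11890.3 and 3709 with BRAFi + MEKi. All treated WM793 libraries were above the DMSO libraries, with a wide spread among themselves. The log2 change was 3.61 (SE 0.82, FDR-adjusted p = 0.0033, limma's moderated test), and it stayed called with each library left out (2.82 to 4.35). The 1205Lu libraries were at 377, 337 and 271 with DMSO and 478, 574 and 609 with the inhibitors. These did not overlap, but the change of 0.76 missed the threshold (FDR-adjusted p = 0.31) and passed it in a fit of only the libraries compared (0.018). A375 had 682, 727 and 1605 with DMSO and 2743, 2739 and 600.4 with the inhibitors. Replicate 3 was the highest of the A375 DMSO libraries and the lowest of the treated ones. The A375 change was 0.83, FDR-adjusted p = 0.29, and without BRAFi + MEKi replicate 3 it was 1.56, FDR-adjusted p = 0.032. Differences between lines in the NGFR response missed the threshold, with FDR-adjusted p of 0.078 for 1205Lu versus WM793, 0.99 for 1205Lu versus A375 and 0.063 for WM793 versus A375. Array weights called the first (0.019) and the last (0.024) of these, and also the NGFR change of A375 (0.021).

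L1CAM (ENSG00000198910.14, chrX:153861514-153886173, minus strand), a cell adhesion protein of growing axons and migrating cells, rose in 1205Lu and WM793 and fell in A375. The 1205Lu libraries went from 12245, 10532 and 10301 with DMSO to 16237, 23474 and 19923 with BRAFi + MEKi. Those of WM793 went from 5933, 7044 and 5699 to 18526, 28931 and 20028, and those of A375 from 8483, 9854 and 11855 to 5148, 4403 and 6918. The groups were apart in all 3 lines. The log2 change was 0.84 for 1205Lu (SE 0.15, FDR-adjusted p = 0.00095, limma's moderated test), 1.83 for WM793 (SE 0.20, FDR-adjusted p = 1.1e-05) and -0.89 for A375 (SE 0.16, FDR-adjusted p = 0.00057). All pairs of lines differed in this response, with FDR-adjusted p of 0.0085 for 1205Lu versus WM793, 3.1e-05 for 1205Lu versus A375 and 8.7e-09 for WM793 versus A375.

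NES (ENSG00000132688.11, chr1:156668763-156677407, minus strand) also rose in 1205Lu and fell in A375. The 1205Lu libraries were at 23356, 22808 and 24116 with DMSO and 44109, 42978 and 36417 with BRAFi + MEKi, a log2 change of 0.81 (SE 0.14, FDR-adjusted p = 0.00084, limma's moderated test). A375 had 4717, 4690.5 and 5419 and then 1425, 1301 and 2195, a log2 change of -1.63 (SE 0.21, FDR-adjusted p = 3.6e-05). WM793 overlapped, at 20171, 28058 and 22719.7 with DMSO and 22645, 34893 and 21820.1 with the inhibitors (0.14, FDR-adjusted p = 0.68, 95% interval -0.37 to 0.65). The 3 treated 1205Lu libraries had the highest NES of all 36 libraries. The response of A375 was below that of 1205Lu by 2.43 (FDR-adjusted p = 2.4e-06) and below that of WM793 by 1.77 (FDR-adjusted p = 7.2e-05).

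AQP1 (ENSG00000240583.13, chr7:30911853-30925517, plus strand), a water channel found on neural crest cells, was low in these lines. A375 had 36.2, 69.3 and 68.1 with DMSO and 177, 197 and 143 with BRAFi + MEKi, a log2 change of 1.60 (SE 0.28, FDR-adjusted p = 0.00046, limma's moderated test). The 1205Lu libraries were at 20.1, 8.86 and 4.62 and 50.5, 36.3 and 29.1. These did not overlap, but the change of 1.88 (SE 0.69) missed the threshold (FDR-adjusted p = 0.055). It passed without DMSO replicate 1 (2.38, FDR-adjusted p = 0.031), with only the libraries compared (0.029), with rescaled totals (FDR-adjusted p = 0.0496), with array weights (0.025) and with the replicate number as a block (0.032). WM793 overlapped (-0.66, FDR-adjusted p = 0.43). The WM793 response was below that of 1205Lu by 2.54 (FDR-adjusted p = 0.032) and below that of A375 (difference of WM793 from A375 -2.27, FDR-adjusted p = 0.041).

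**Figure D3:**
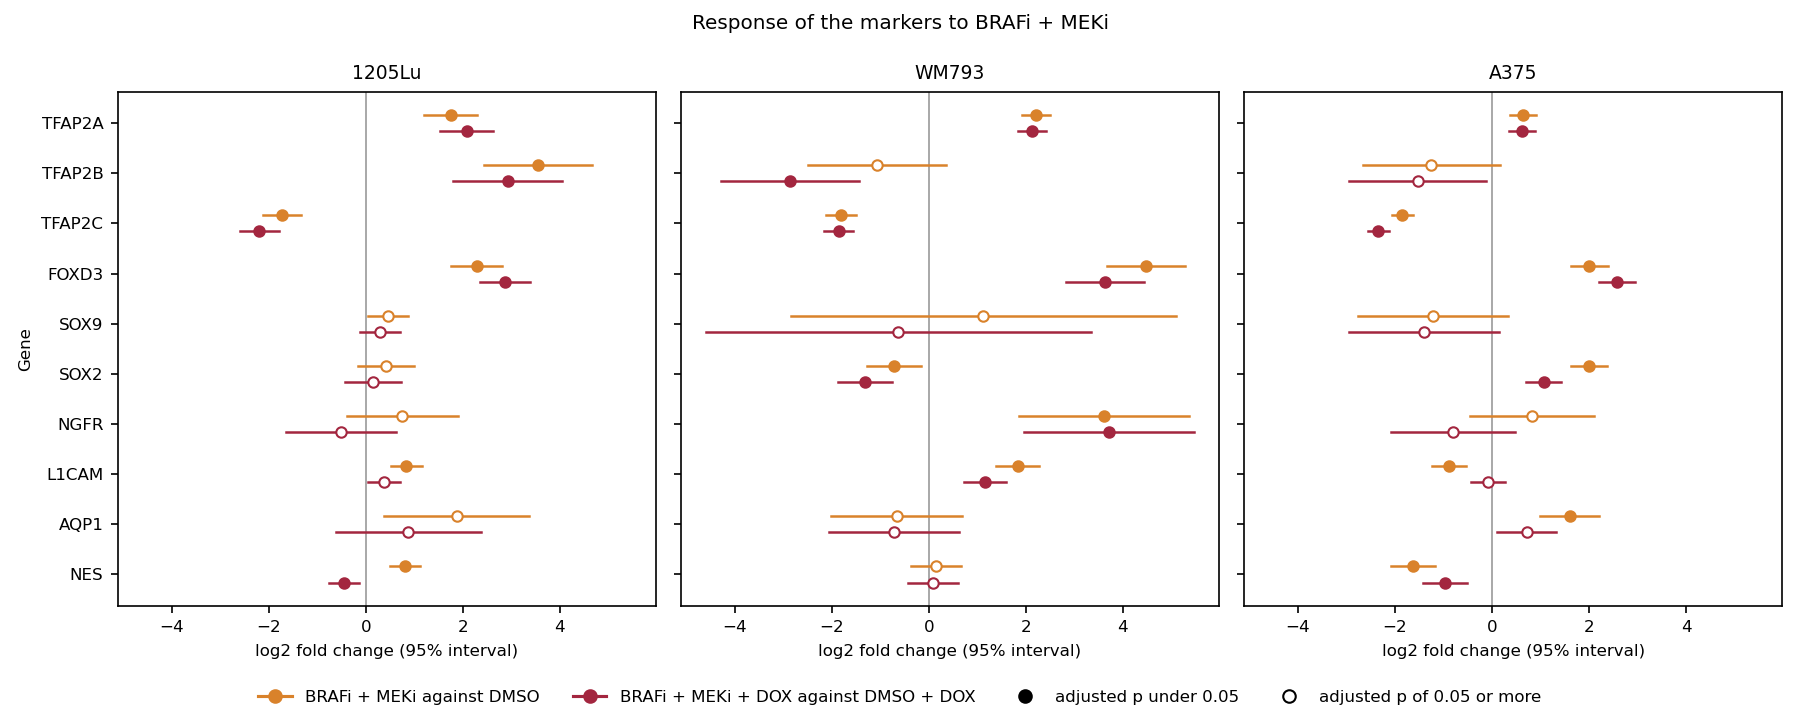
Log2 changes of the 10 markers with BRAFi + MEKi are plotted for each line, without DOX and with DOX, with 95% intervals from limma. Filled points have an adjusted p under 0.05, and FOXD3 and TFAP2A are filled on the right and TFAP2C on the left in every line with and without DOX, while SOX9 is open throughout.

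The same response was measured in cells with induced NR2F1, as BRAFi + MEKi + DOX relative to DMSO + DOX. The NR2F1 level was not the same on both sides. In 1205Lu it was 30839 to 35345 with the inhibitors and 9155 to 20699 without them (1.48, FDR-adjusted p = 0.0097, limma's moderated test). Effects of the inhibitors and of the NR2F1 level cannot be told apart there. Mean NR2F1 was 42977 and 64937 in WM793 and 24797 and 22635 in A375, in the same order. Of the 10 members 5, 7 and 5 were called in 1205Lu, WM793 and A375, where 28.2%, 31.7% and 31% of all genes were. With array weights the 1205Lu count was 9. TFAP2A, FOXD3 and TFAP2C were again called in the same direction in all 3 lines, as were 9.04% of the 19420 genes tested in every line. The log2 changes of TFAP2C were -2.19, -1.86 and -2.34 for 1205Lu, WM793 and A375. That of FOXD3 was 2.87, 3.64 and 2.58, and that of TFAP2A was 2.08, 2.12 and 0.63. TFAP2A made up 66.0% ± 8.86, 57.8% ± 3.99 and 48.6% ± 1.51 of the summed AP-2 level per kb with BRAFi + MEKi + DOX, and 9.44% ± 0.9, 7.98% ± 0.81 and 10.8% ± 1.24 with DMSO + DOX (SD, n = 3).

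Other members called with DOX present were TFAP2B in 1205Lu (2.92, FDR-adjusted p = 0.001, limma's moderated test), NGFR and L1CAM in WM793 (3.72, FDR-adjusted p = 0.0032 and 1.16, FDR-adjusted p = 0.00063), and SOX2 in WM793 (-1.31, FDR-adjusted p = 0.0014) and A375 (1.07, 0.00033). The NGFR change in WM793 stayed called with each library left out but varied from 2.88 to 4.84. TFAP2B was called lower in WM793 (FDR-adjusted p = 0.0044), at 10.5, 2.15 and 15.3 with DMSO + DOX and 0, 0.55 and 0 with BRAFi + MEKi + DOX, levels close to the limit of detection. NES was called lower in A375 (-0.98, FDR-adjusted p = 0.003) and in 1205Lu (-0.46, FDR-adjusted p = 0.029). The 1205Lu call was kept without BRAFi + MEKi + DOX replicate 1 and lost without any of the other 5 libraries (FDR-adjusted p up to 0.11), and with rescaled totals (-0.35, FDR-adjusted p = 0.1). NES in 1205Lu thus had opposite signs with and without DOX, but the difference between both responses, which is also that between both DOX effects, missed the threshold (-1.27, FDR-adjusted p = 0.27). Other changes passed with 1 library left out. These were NGFR in 1205Lu without BRAFi + MEKi + DOX replicate 1 (-1.39, FDR-adjusted p = 0.0025), SOX9 in 1205Lu without DMSO + DOX replicate 1 (0.51, FDR-adjusted p = 0.0498), TFAP2B in A375 without DMSO + DOX replicate 3 (-2.29, FDR-adjusted p = 0.011, or under the replicate block 0.034) and AQP1 in A375 without DMSO + DOX replicate 1 (0.90, FDR-adjusted p = 0.04).

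Setting BRAFi + MEKi + DOX beside BRAFi + MEKi asks what changes under the inhibitors with DOX, which induces NR2F1. NES in 1205Lu was the only member called. Its libraries were at 44109, 42978 and 36417 with BRAFi + MEKi and 18893, 14960.1 and 15325 with BRAFi + MEKi + DOX. The groups were far apart. NES fell by 1.33 on the log2 scale (SE 0.14, FDR-adjusted p = 0.0049, limma's moderated test), a call that was kept with each library left out (0.00031 to 0.035) and lost in a fit of only the 6 libraries compared (0.078). In all, limma called 1 of 10 members for 1205Lu, 0 for WM793 and 0 for A375, where 0.334%, 0.204% and 1.52% of all genes were, and 4, 1 and 5 members had an unadjusted p under 0.05. Such a p was found for 2153 of 22144, 1754 of 22074 and 2585 of 24370 genes tested. WM793 had 22645, 34893 and 21820.1 without DOX and 10372, 20829 and 17363 with DOX, which did not overlap (-0.73, FDR-adjusted p = 0.37, 95% interval -1.25 to -0.22), and with the replicate number as a block the change was called (0.043), which makes the WM793 count 1. A375 had 1425, 1301 and 2195 and 2191, 1921 and 3039, which overlapped (0.55, FDR-adjusted p = 0.33). Array weights called NES higher with DOX in A375 (0.60, FDR-adjusted p = 0.048).

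By limma's interaction contrast, the DOX effect on NES under the inhibitors differed between 1205Lu and A375 (-1.88, FDR-adjusted p = 0.0032) and between WM793 and A375 (-1.284, FDR-adjusted p = 0.032). Both calls were lost in a fit of only the libraries compared (FDR-adjusted p = 0.13 and 0.25). The difference between 1205Lu and WM793 missed the threshold (-0.60, FDR-adjusted p = 0.75). For 1205Lu versus WM793, limma called 0 members and 0 had an unadjusted p under 0.05, beside 1905 of 26779 genes. For 1205Lu versus A375 and WM793 versus A375 it called 1 member each. Over all genes 0.138%, 0.179% and 0.881% were called for these pairs.

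NGFR had the largest fitted fall of the members in 1205Lu, but not a called one. Its libraries were at 478, 574 and 609 with BRAFi + MEKi and 409.7, 61.6 and 70.0 with BRAFi + MEKi + DOX. Replicate 1 with DOX stood near the libraries without DOX, and the other DOX libraries were far lower. The log2 change of -2.17 (SE 0.53, FDR-adjusted p = 0.11, limma's moderated test) became -3.05, FDR-adjusted p = 0.00026 without that replicate. With the replicate number as a block NGFR was called too (0.035), which makes the 1205Lu count 2. The library of replicate 1 had 21559 genes above 0, and the others of its group had 20004 and 19940. Its estimated number of reads was also higher, at 40070791, with 28506000 and 25146007 for the others. The part of these differences in the result was not tested. A375 had 2743, 2739 and 600.4 without DOX and 768, 834 and 321 with DOX, which overlapped (-1.48, FDR-adjusted p = 0.37), and without BRAFi + MEKi replicate 3 the change was -2.21, FDR-adjusted p = 0.044. The WM793 libraries with DOX, at 451, 6866 and 3151, overlapped with those without it (-0.90, FDR-adjusted p = 0.86). In every line each NGFR value with DOX was below that of the same replicate number without DOX. The replicate block called NGFR in 1205Lu only. L1CAM missed the threshold in 1205Lu (-0.58, FDR-adjusted p = 0.14) and in A375 (0.54, FDR-adjusted p = 0.15), where it passed without BRAFi + MEKi replicate 3 (0.72, FDR-adjusted p = 0.019). Array weights called L1CAM lower in 1205Lu (-0.59, FDR-adjusted p = 0.011) and higher in A375 (0.69, FDR-adjusted p = 0.007). TFAP2B also missed the threshold in 1205Lu (-1.36, FDR-adjusted p = 0.38) and A375 (-1.69, FDR-adjusted p = 0.34), as did SOX2 in A375 (-0.43, FDR-adjusted p = 0.36).

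For TFAP2A, TFAP2C and FOXD3 the intervals of the DOX effect under the inhibitors left out a change as large as the effect of BRAFi + MEKi in the same line. The log2 changes of TFAP2A were 0.26 in 1205Lu (95% interval -0.29 to 0.81), -0.14 in WM793 (-0.43 to 0.15) and -0.03 in A375 (-0.30 to 0.24). Those of TFAP2C were -0.35 (-0.75 to 0.05), -0.13 (-0.43 to 0.17) and -0.12 (-0.33 to 0.10). Those of FOXD3 were -0.29 (-0.81 to 0.22), -0.17 (-0.98 to 0.63) and -0.17 (-0.54 to 0.21). The interval of SOX9 was narrow in 1205Lu (-0.59 to 0.24) and wide in WM793 (-4.97 to 2.98) and A375 (-1.35 to 1.73).

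**Figure D4:**
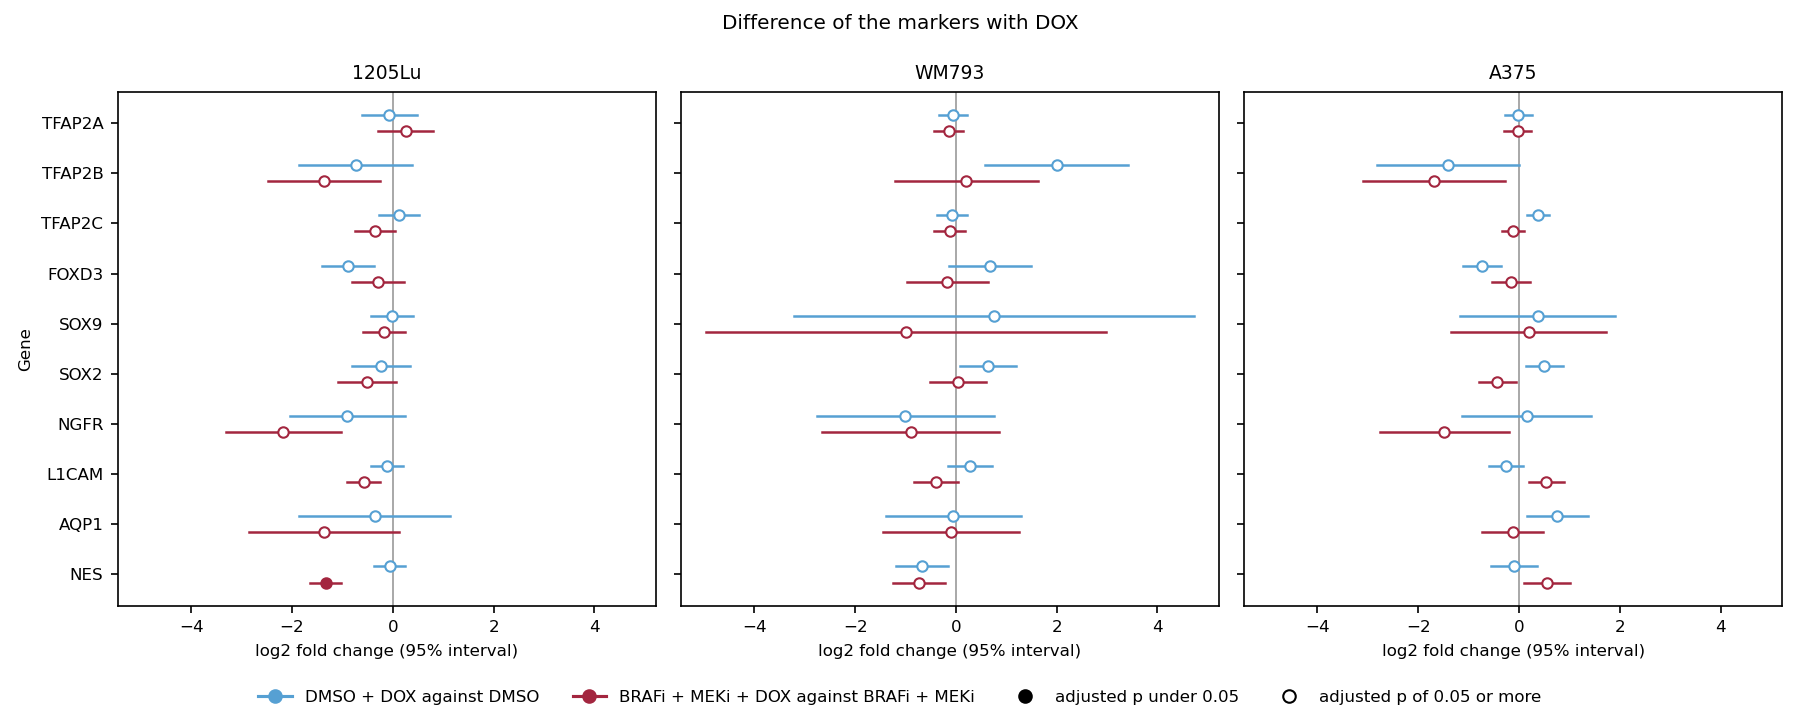
Log2 changes of the 10 markers with DOX are plotted for each line, under DMSO and under BRAFi + MEKi, with 95% intervals from limma. The 1 filled point, with an adjusted p under 0.05, is NES in 1205Lu under BRAFi + MEKi at -1.33.

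Without inhibitors, no member was called for DOX. By limma the count was 0 of 10 in each line, where 0.00903%, 0.512% and 0.0492% of all genes were called, and 1, 3 and 4 members had an unadjusted p under 0.05. Such a p was found for 1516 of 22144, 2189 of 22074 and 1937 of 24370 genes tested. NES in WM793 was at 20171, 28058 and 22719.7 with DMSO and 12808, 16478 and 14981 with DMSO + DOX, which did not overlap (-0.67, FDR-adjusted p = 0.34). With the replicate number as a block this change was called (-0.67, FDR-adjusted p = 0.039), which makes the WM793 count 1. In 1205Lu NES was at 23427 ± 657 and 22391 ± 195 (SD, n = 3). NGFR was at 253, 141 and 146 with DMSO + DOX in 1205Lu and 135, 157 and 197 in WM793, below all DMSO libraries of the same line (-0.91, FDR-adjusted p = 0.79, and -1.01, FDR-adjusted p = 0.73). FOXD3 in A375 was at 129, 179 and 154, also below its DMSO libraries (-0.74, FDR-adjusted p = 0.24), and in 1205Lu its groups overlapped (-0.88, FDR-adjusted p = 0.58). Other members were above their DMSO libraries with DOX, without a call. In A375 these were TFAP2C at 2955, 2772 and 3129 (0.38, FDR-adjusted p = 0.3), SOX2 at 373, 405 and 499 (0.50, FDR-adjusted p = 0.47) and AQP1 at 123, 77.7 and 89.7 (0.76, FDR-adjusted p = 0.53). In WM793 SOX2, at 426, 283 and 317, was also above its DMSO libraries (0.63, FDR-adjusted p = 0.44), and the TFAP2B groups overlapped (2.00, FDR-adjusted p = 0.29). The difference between both DOX effects was called for 0 of 10 members in each line by limma, where 0%, 0% and 0.46% of all genes were, with 2, 1 and 6 members at an unadjusted p under 0.05. For this difference 1267 of 22144, 1262 of 22074 and 1766 of 24370 genes tested had such a p. Without 1205Lu BRAFi + MEKi + DOX replicate 1, NGFR (-2.14, FDR-adjusted p = 0.043) and NES (-1.37, FDR-adjusted p = 0.016) passed for this difference, and without A375 BRAFi + MEKi replicate 3, L1CAM did (0.99, FDR-adjusted p = 0.035).

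Other genes of the same pathways were counted in lists written from their general roles, but with earlier results of these data known. Their counts are therefore a description. SOX10 is in both the neural crest and the melanocyte lineage list, and S100B in both the glial and the melanocyte lineage list. Of 25 other neural crest transcription factors, 10 rose and 2 fell of 23 tested in 1205Lu, 6 rose and 8 fell of 22 in WM793, and 9 rose and 4 fell of 23 in A375, with a median log2 change of 0.61, -0.08 and 0.07. Of all genes tested 16.5% rose and 14.4% fell in 1205Lu, 20.4% and 16.9% in WM793, and 20.5% and 19% in A375, with medians of 0.11, 0.15 and 0.06. ID3, an inhibitor of basic helix-loop-helix factors, rose in 1205Lu (3.60, adjusted p = 4.7e-07, with log2 change and adjusted p of limma's moderated test in parentheses here and below) and A375 (3.09, adjusted p = 3.2e-06), and so did ID2 of the same family (1.69, adjusted p = 0.0017, and 2.95, adjusted p = 7.2e-06). MYCN rose in 1205Lu (2.38, adjusted p = 0.00015) and fell in WM793 (-6.49, adjusted p = 1.5e-08). SNAI1, a regulator of neural crest migration, rose in 1205Lu (2.04, adjusted p = 0.0023). In WM793, SOX8 (-4.37, adjusted p = 2.1e-07) and TWIST1 (-2.68, adjusted p = 2.1e-07) fell and ETS1 rose (2.26, adjusted p = 1.4e-05). In A375 the homeobox gene DLX5 rose (4.81, adjusted p = 0.00011) and the retinoid receptor gene RXRG fell (-3.76, adjusted p = 0.0025). The median level of RXRG over all A375 libraries was only 5.27.

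Of 13 neurotrophins and receptors, the signalling partners of NGFR, 5 rose and 2 fell of 13 tested in 1205Lu, 6 rose and 2 fell of 13 in WM793, and 2 rose and 2 fell of 12 in A375, with a median log2 change of 0.42, 0.57 and 0.12. Over all genes 30.9%, 37.3% and 39.5% were called in either direction, with medians of 0.11, 0.15 and 0.06. NTRK2, the receptor of BDNF and NTF4, rose in 1205Lu (3.55, adjusted p = 7.1e-05), WM793 (3.63, adjusted p = 3.4e-05) and A375 (2.63, adjusted p = 0.001, limma). The ligand NTF4 rose in 1205Lu (2.14, adjusted p = 0.0087) and WM793 (2.94, adjusted p = 0.0011). Among sorting receptors that can pair with NGFR, SORCS2 rose in WM793 (3.32, adjusted p = 0.016) and SORT1 in A375 (1.36, adjusted p = 7.1e-07). The NGFR co-receptor LINGO1 fell in A375 (-1.97, adjusted p = 0.033), and RTN4R, the Nogo receptor, fell in 1205Lu (-2.45, adjusted p = 0.0022).

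Of 16 adhesion and cytoskeleton genes of neural cells, the companions of L1CAM and NES, 7 rose and 0 fell of 12 tested in 1205Lu, 8 rose and 1 fell of 14 in WM793, and 9 rose and 3 fell of 15 in A375, with a median log2 change of 0.66, 1.08 and 0.92. The shares of all genes were 16.5%, 20.4% and 20.5% higher and 14.4%, 16.9% and 19% lower, with medians of 0.11, 0.15 and 0.06. NRCAM, a relative of L1CAM, rose in 1205Lu (2.26, adjusted p = 0.023), WM793 (1.82, adjusted p = 6.0e-05) and A375 (3.06, adjusted p = 0.0012, limma). The cadherin CDH19 (3.77, adjusted p = 0.00043) and the intermediate filament gene SYNM (2.81, adjusted p = 2.8e-05) rose in 1205Lu. CNTN1 rose in 1205Lu (2.74, adjusted p = 0.00012) and WM793 (1.81, adjusted p = 6.7e-06), and CDH6 in WM793 (3.05, adjusted p = 0.0082) and A375 (3.95, adjusted p = 7.5e-05). CHL1, another relative of L1CAM, rose in WM793 (2.66, adjusted p = 1.3e-05) and ANK3 in A375 (2.95, adjusted p = 4.9e-06), while the neurofilament gene NEFM fell in A375 (-3.79, adjusted p = 0.00029). NEFM was listed at 0 in 28 of 36 libraries and reached at most 27.5, and the median of CDH6 over all WM793 libraries was 5.45.

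Of 14 glial and Schwann cell genes, 7 rose and 0 fell of 13 tested in 1205Lu, 6 rose and 2 fell of 12 in WM793, and 8 rose and 0 fell of 14 in A375, with a median log2 change of 2.66, 1.14 and 0.91. Among all genes 16.5%, 20.4% and 20.5% rose and 14.4%, 16.9% and 19% fell, and their medians were 0.11, 0.15 and 0.06. GFRA2, a receptor of the factor neurturin, rose in 1205Lu (5.92, adjusted p = 1.0e-06), WM793 (3.15, adjusted p = 0.00089) and A375 (2.60, adjusted p = 0.014, limma). The myelin gene PMP22 rose in WM793 (2.34, adjusted p = 2.3e-07). SLITRK6 rose in 1205Lu (3.34, adjusted p = 0.00099) and A375 (1.88, adjusted p = 2.0e-06), the endothelin receptor gene EDNRB in 1205Lu (2.88, adjusted p = 2.0e-06) and GFAP in A375 (2.78, adjusted p = 0.0078). FABP7 fell in WM793 (-5.33, adjusted p = 1.1e-06).

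Of 12 melanocyte lineage genes, 6 rose and 1 fell of 10 tested in 1205Lu, 5 rose and 3 fell of 10 in WM793, and 7 rose and 1 fell of 11 in A375, with a median log2 change of 0.88, 0.79 and 0.85. For comparison, 16.5%, 20.4% and 20.5% of all genes rose and 14.4%, 16.9% and 19% fell, with medians of 0.11, 0.15 and 0.06. DCT, an enzyme of pigment synthesis, rose in 1205Lu (6.44, adjusted p = 0.0018), WM793 (8.16, adjusted p = 3.8e-07) and A375 (7.58, adjusted p = 0.00053, limma). MITF, the master factor of melanocytes, rose in 1205Lu (0.89, adjusted p = 0.0492) and A375 (1.56, adjusted p = 2.4e-06). S100B rose in 1205Lu (1.93, adjusted p = 0.0029), MCAM in 1205Lu (1.11, adjusted p = 0.0029) and WM793 (2.17, adjusted p = 3.2e-05), TYRP1 in WM793 (3.46, adjusted p = 0.0026) and PMEL in A375 (1.70, adjusted p = 0.0025). TYRP1 reached at most 26.8 in any library, and the median of DCT over all 1205Lu libraries was 3.07. S100A1 fell in WM793 (-2.04, adjusted p = 0.0012) and CSPG4 in A375 (-2.67, adjusted p = 2.1e-06). Of the 10 markers of other cell types, KRT15 fell (-6.30, adjusted p = 9.5e-06) and VWF rose (2.63, adjusted p = 0.0047) in 1205Lu, and PTPRC rose (4.09, adjusted p = 5.7e-05) and CDH5 fell (-1.73, adjusted p = 0.045) in A375. The medians of PTPRC and CDH5 over all A375 libraries were 2.56 and 3.08. By limma 0 of the 7 markers tested were called in WM793, with 2 at an unadjusted p under 0.05, beside 10127 of 22074 genes. The summed level of the 10 markers was 165 to 225 with DMSO and 65.5 to 112 with BRAFi + MEKi in 1205Lu, 9.72 to 119.6 and 14.7 to 38.4 in WM793, and 346 to 436 and 228 to 954 in A375, and its part in the results was not tested.

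**Figure D5:**
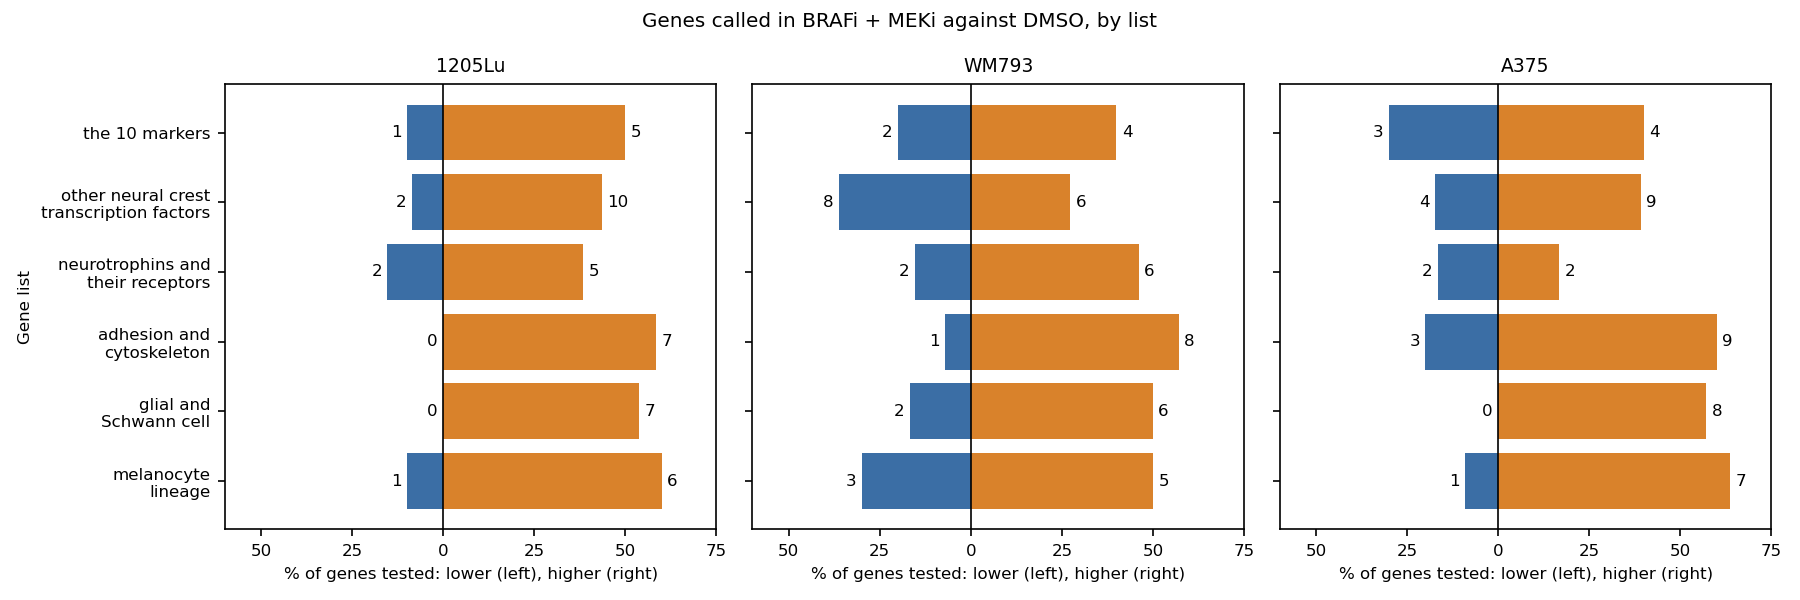
Bars give the percentage of tested genes of each list that were called higher (right) or lower (left) with BRAFi + MEKi in each line, and the printed digits are numbers of genes. More adhesion, glial and melanocyte lineage genes were called higher than lower in all 3 lines, as were more of all genes tested (16.5% and 14.4% in 1205Lu, 20.4% and 16.9% in WM793, 20.5% and 19% in A375), and the other neural crest transcription factors had 6 higher and 8 lower in WM793.

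Few genes of these lists were called for DOX. Among all genes it was 0.00903%, 0.512% and 0.0492% in 1205Lu, WM793 and A375 under DMSO and 0.334%, 0.204% and 1.52% under the inhibitors. Of the glial genes 0 of 13, 0 of 12 and 1 of 14 were called under DMSO and 1 of 13, 2 of 12 and 0 of 14 under the inhibitors, in the same order of lines. Of the other neural crest transcription factors 0 of 23, 3 of 22 and 0 of 23 were called under DMSO, and 0 of 23, 1 of 22 and 0 of 23 under the inhibitors. Under the inhibitors EDNRB was lower with DOX in 1205Lu (-1.34, adjusted p = 0.031, limma), and RXRG (-1.83, adjusted p = 0.015) and GFRA2 (-3.60, adjusted p = 0.033) were lower in WM793. Under DMSO, ID3 (2.68, adjusted p = 0.044) and ID2 (2.25, adjusted p = 0.005) were higher and RXRG (-1.69, adjusted p = 0.014) was lower with DOX in WM793. Of the neurotrophin, adhesion, melanocyte and other cell type lists, limma called 0 of the 4 to 15 tested for DOX in any line, with or without inhibitors, while 0 to 5 genes of a list had an unadjusted p under 0.05. In these comparisons between 1516 of 22144 and 2585 of 24370 genes tested had such a p. The median of the glial list for DOX under the inhibitors was -0.36, -0.37 and -0.29 in 1205Lu, WM793 and A375, beside -0.01, 0.00 and 0.00 over all genes. Under DMSO it was -0.47, -0.23 and -0.23. The medians of the other 5 lists were between -0.33 and 0.40 under the inhibitors and between -1.004 and 0.07 under DMSO.

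Genes with a pattern most like that of a member were found among 12721 genes by Pearson's r over the 12 group means of log2(value + 1), centred within each line. These r values are a description, since all genes share the 12 groups and their libraries. TFAP2C was most like SLC20A1 (r = 0.998), MOSMO and GLRX3, TFAP2A most like C1R (r = 0.995), ARRDC4 and NATD1, and FOXD3 most like UBAP1 (r = 0.987), COL5A1 and MGAM. L1CAM was most like PTGR1 (r = 0.971), HPS4 and CSF1, SOX2 most like SVIL (r = 0.961), UBXN8 and FREM2, and NES most like CIBAR1 (r = 0.958), DCAF6 and IFFO2. NGFR was most like DAD1 (r = 0.956), RAB29 and CYBA, AQP1 most like THAP6 (r = 0.954), FUNDC1 and SLC25A26, and SOX9 most like NSMCE2 (r = 0.905), TCFL5 and ZCRB1. TFAP2B was too low to be included.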

How the data were processed

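Libraries were made with an unstranded TruSeq kit. Per the labels, the authors used STAR, RSEM and DESeq2 with GRCh38. The deposited signal is normalized expression per gene, made by the authors with no gene filtered out. It is not a count and whole reads could not be recovered, so the precision rests on the spread between the 3 libraries of a group.

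Values were tested as log2(value + 1) with limma 3.58.1 in R 4.3.3 (moderated test, mean-variance trend), and p-values were adjusted over all genes tested by Benjamini-Hochberg, with a threshold of 0.05. A gene was tested where some group mean reached 1. Each line was fitted on its 12 libraries (22144, 22074 and 24370 genes), and lines were compared on all 36 (26779 genes). This scale understates changes of low genes. The fit was tested on simulated data.

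The members and the 6 gene lists were chosen with earlier results of these data known. All members are named, and of each list up to 4 called genes per line with the largest change, for BRAFi + MEKi and for DOX, apart from some that are not reported here. Positions and lengths are from GENCODE 44, promoters from RefSeq, and tables were made in Python 3.11.15. Alternatives were a pseudocount of 0.1, no filter, only the libraries compared, rescaled totals, array weights, the replicate number as a block and each library left out (within lines only). TFAP2A shares by all annotated exons were added after the data were seen.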

Additional observations from a re-analysis of the deposited data

Results flagged for a closer look

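By limma's interaction contrast, responses to BRAFi + MEKi differed for 5 of the 10 members for 1205Lu versus WM793, where 14.5% of all genes were called. For 1205Lu versus A375 it was 5 members and 14.7% of all genes, and for WM793 versus A375 6 members and 22.8%. The values below are log2 differences, first line minus second, with FDR-adjusted p in parentheses. For 1205Lu versus WM793 they were 4.62 for TFAP2B (0.00048), 1.13 for SOX2 (0.022), -2.20 for FOXD3 (0.00047), -0.99 for L1CAM (0.0085) and 2.54 for AQP1 (0.032). For 1205Lu versus A375 they were 4.81 for TFAP2B (0.00038), 2.43 for NES (2.4e-06), 1.11 for TFAP2A (0.0045), -1.58 for SOX2 (0.0017) and 1.72 for L1CAM (3.1e-05). For WM793 versus A375 they were 1.77 for NES (7.2e-05), 1.56 for TFAP2A (6.2e-05), -2.72 for SOX2 (5.9e-07), 2.48 for FOXD3 (5.9e-05), 2.72 for L1CAM (8.7e-09) and -2.27 for AQP1 (0.041). For 1205Lu versus WM793, SOX2 and AQP1 were lost in a fit of only the libraries compared (0.082 and 0.086), and SOX2 also with rescaled totals (0.061). For WM793 versus A375, AQP1 was lost with a pseudocount of 0.1 (0.061) and with no filter (0.054).

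The DOX effect on NES under BRAFi + MEKi also differed, by -1.88 between 1205Lu and A375 (FDR-adjusted p = 0.0032) and by -1.284 between WM793 and A375 (FDR-adjusted p = 0.032, limma's interaction contrast). Under the inhibitors every NES value with DOX was below every value without it in 1205Lu and in WM793, and the A375 groups overlapped. Line and medium cannot be told apart in the differences from A375, which was grown in another medium than the other lines.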

How the results depend on the processing

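Counts of members called were recomputed in 240 fits over 24 comparisons, and 223 stayed within 1.5 times the reported count. For DOX under BRAFi + MEKi in 1205Lu the count of 1 became 2 with the replicate block, 3 with array weights and 0 with only the libraries compared, and was 1 to 2 with a library left out. In A375 the count of 0 for this comparison became 2 with array weights and was 0 to 2 with a library left out. For the difference between both DOX effects it was 0 to 2 in 1205Lu and 0 to 1 in A375 with a library left out, and 1 in 1205Lu with array weights. For BRAFi + MEKi + DOX relative to DMSO + DOX in 1205Lu the count of 5 became 9 with array weights. For differences between lines in the effect of DOX under the inhibitors, the count of 1 became 2 with array weights and 0 with only the libraries compared, both for 1205Lu versus A375 and for WM793 versus A375, and 2 with rescaled totals for 1205Lu versus A375. The cause was not tested.

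Replicates are numbered 1 to 3, and nothing says that a number marks a shared experiment. Deviations of same-numbered libraries had r between 0.0037 and 0.274 over 12 comparisons, with all pairs over 0.1 in 2, DOX under BRAFi + MEKi in 1205Lu and in WM793. In 30 of 36 pairs a library was most like its own number. The pairing was not taken as given. With the replicate block NES in WM793 was called lower with DOX under DMSO (-0.67, FDR-adjusted p = 0.039) and under BRAFi + MEKi (-0.73, FDR-adjusted p = 0.043), which raises both counts from 0 to 1. The block also called NGFR for DOX under BRAFi + MEKi in 1205Lu (0.035), AQP1 for BRAFi + MEKi in 1205Lu (0.032) and TFAP2B for BRAFi + MEKi + DOX relative to DMSO + DOX in A375 (0.034), and changed no other call.

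Of 2411 recomputed values, 2240 kept their direction and side of the threshold or moved by less than the spread, and 0 called values changed sign. TFAP2A shares by all annotated exons with DMSO and then BRAFi + MEKi were 4.59% and 33.8% in 1205Lu, 3.33% and 35.8% in WM793, and 5.94% and 26.1% in A375. The estimated depth of WM793 DMSO replicate 1 limits what can be detected in that library, and 3 libraries per group limit NGFR, SOX9 and AQP1.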
